A study of Gallus gallus with 7 samples.

Results

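The regions described here are the 500-bp tiles nearest to the ends of chicken chromosomes 1, 10, 11, 12 and 13, in CpG methylation profiles of microglia. A tile was used when at least 3 cytosine positions in it had a value in all 7 libraries. An end tile lies within 3 Mb of the first or last listed position of chromosome 1, or within 1 Mb of the first or last listed position of chromosomes 10 to 13. No measured methylation level enters this rule, but the regions were chosen with earlier results of these data known. It gave 2711 end tiles of 19115 tiles in all, and 15558 interior tiles of the same 5 chromosomes served for comparison. The remaining 846 tiles lie on chromosome 14, which is listed only in part. The site table gave no tiles on other chromosomes, so a share of all tiles is not a share of the whole genome. The 10 ends are called the first and the last end of each chromosome, and they hold between 81 tiles (first end of chromosome 12) and 534 tiles (last end of chromosome 1).

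Conditioned libraries 1-2, 3 and 4 came from microglia of chicks that, per the labels, were heat-conditioned for 24 h at 39 °C on day 3 after hatch, and non-conditioned libraries 1, 2, 3 and 4 from non-conditioned chicks. All were 10 days old and had not yet received the lipopolysaccharide challenge of the wider study. Per the labels, microglia were sorted by flow cytometry from cells of the anterior hypothalamus pooled over 10 to 12 chicks, and libraries for reduced representation bisulfite sequencing (RRBS), which reads CpG-rich restriction fragments, were made from 15 to 30 ng of DNA. Strain and sex are not given in the sources used here. How the conditioned library numbered 1-2 was made is not given in the labels, and it was counted as 1 library. Microglia are the resident macrophages of the brain. A value of a pool averages over its chicks. The labelled cell type was not checked against marker genes here, because the files name no genes.

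The chicken karyotype joins a few large chromosomes to many small ones that are rich in genes and CpG sites, and chromosome 1 is the largest. A chromosome ends in telomere repeats, and the stretch next to them, the subtelomere, is often rich in repeats. In vertebrate cells most CpG sites are methylated, whereas CpG-dense stretches at promoters, called CpG islands, are mostly free of methylation. In human somatic cells subtelomeric CpG sites are known to be largely methylated. The listed ends are the outermost positions with a value in the deposited table, and their distance to the telomere is not known here.

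The first listed positions, on the build galGal5, are 112 on chromosome 1, 505659 on chromosome 10, 27334 on chromosome 11, 18746 on chromosome 12 and 503786 on chromosome 13. The last listed positions are 196201779, 20416047, 20216821, 19937875 and 18405932 on chromosomes 1, 10, 11, 12 and 13. Listed positions were denser at 9 of the 10 ends than in the interior of the same chromosome. The end windows had 9750 listed positions per Mb and the interior 3352, a ratio of 2.91, but most of the interior is the sparse interior of chromosome 1. With the interior weighted to the same chromosomes, the ratio was 2.15 for listed positions and 2.33 for tiles. The first end of chromosome 12 was sparser than its interior, with 4789 against 6603 listed positions per Mb and 81 against 121 tiles per Mb. The end windows cover 5.11% of the listed span and hold 14.8% of the tiles. The density ran from 4165 listed positions per Mb at the first end of chromosome 1 to 26267 at the last end of chromosome 10. The share of listed positions with values in all 7 libraries was 49.0% at the ends and 48.9% in the interior, and the share with a partner 1 bp away on the other strand was 85.7% and 83.1%.

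A tile at the ends did not hold more positions than one in the interior: the median was 12 at the ends and 13 in the interior. Conditioned libraries 1-2, 3 and 4 had values at 69.5%, 83.8% and 81.5% of listed positions in the end windows, and non-conditioned libraries 1 to 4 at 66.1%, 66.6%, 63.8% and 63.0%. The number of reads behind each value is not given in the file, so the depth is unknown and no counting interval can be stated. Between pairs of libraries, Pearson's r over the 2711 end tiles ran from 0.911 to 0.957; tiles share libraries and their levels differ widely, so this is a description.

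End tiles were more methylated than interior tiles of the same chromosome with the same number of positions. The mean over end tiles was 45.4%, 40.3% and 42.5% in conditioned libraries 1-2, 3 and 4, and 42.3%, 43.6%, 44.0% and 44.2% in non-conditioned libraries 1 to 4. The interior tiles matched to them averaged 37.8%, 33.8% and 35.6% in the conditioned libraries and 35.6%, 36.6%, 37.0% and 37.2% in the non-conditioned ones. In each library the ends lay above the interior. The 2691 end tiles with a match averaged 43.5% and their matched interior tiles 36.2%. The difference was 7.22 ± 0.345 percentage points (SD, n = 7 libraries), and it was above 0 in 7 of 7 libraries (exact sign-flip permutation p = 0.0156, two-sided, the smallest that 7 libraries can give). The other 20 end tiles held 84 or more positions each and had no interior tile of the same number.

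That test treats libraries as replicates. All libraries share the same tiles, so it asks whether libraries repeat the difference, and it does not ask whether other chromosome ends would show it. A mean over end tiles is also carried by the ends with most tiles, and 5.37 points remained when each of the 10 ends weighed the same.

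The ends were not alike. Chromosome 1 had the largest difference of the 5 chromosomes, with 11.05 ± 0.671 points (SD, n = 7), and was followed by chromosome 10 with 9.64 ± 0.524 points and chromosome 11 with 7.36 ± 0.265 points. On chromosome 13 the end tiles lay 1.71 ± 0.447 points above matched interior tiles, and on chromosome 12 they lay below them, at -2.20 ± 0.590 points. Each of the 5 differences was repeated in sign by 7 of 7 libraries, with a Benjamini-Hochberg adjusted exact sign-flip permutation p of 0.0156 over the 5 chromosomes. For chromosome 13 the sign depended on the width of the window, as given with the distances from the ends, and its difference shrank to 0.110 points (adjusted exact permutation p = 0.516) without matching on the number of positions.

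**Figure D1:**
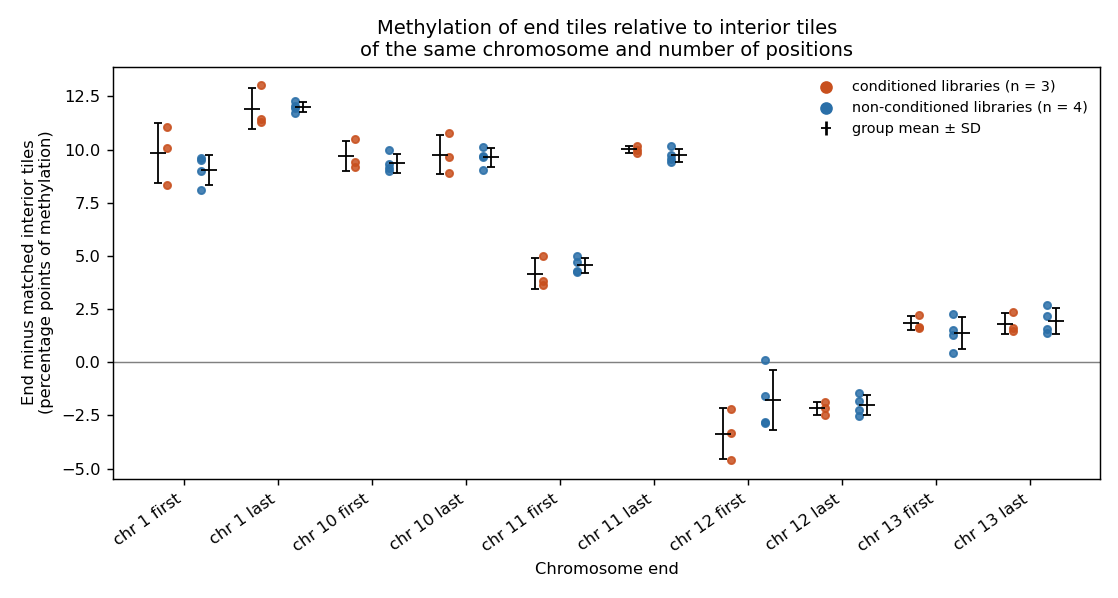
Difference between end tiles and interior tiles of the same chromosome and number of positions (percentage points, vertical axis) at the 10 ends, with a point per library, the 3 conditioned libraries left of the 4 non-conditioned ones, and group means with SD. Ends of chromosomes 1 and 10 and the last end of chromosome 11 lie between 8.09 and 13.02 points, those of chromosome 13 between 0.435 and 2.69 points, and those of chromosome 12 mostly below 0.

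Of the 10 ends, 8 lay above matched interior tiles in all 7 libraries and 1 lay below them in all 7. The last end of chromosome 1 stood highest relative to its interior. It differed by 13.02, 11.3 and 11.5 points in conditioned libraries 1-2, 3 and 4, and by 11.7, 11.95, 12.05 and 12.3 points in non-conditioned libraries 1 to 4. The last end of chromosome 11 (9.84 points), the last end of chromosome 10 (9.69), the first end of chromosome 10 (9.50) and the first end of chromosome 1 (9.38) followed. Their ranges over libraries overlapped, so these 4 cannot be ordered. The first end of chromosome 11 was set apart at 4.38 points, with a range over libraries of 3.65 to 4.99, and it turned to -1.48 points when set against the next 1 Mb inward alone. All 7 of its values lay below every value of the last end of the same chromosome, which ran from 9.41 to 10.2 points.

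At chromosome 12 both full windows lay lower than the interior, and the outer 0.5 Mb of the first end lay above it, by 6.63 points. The first end had -4.60, -2.21 and -3.31 points in conditioned libraries 1-2, 3 and 4, and -1.59, -2.80, -2.86 and 0.13 points in non-conditioned libraries 1 to 4. Non-conditioned library 4 was thus level with the interior and the other 6 libraries were below. This end rests on 81 tiles and passed at an adjusted exact permutation p of 0.0312 over the 10 ends, the highest of the 10. It lost the call (adjusted exact p = 0.0625) without any 1 of conditioned libraries 1-2, 3 and 4 or non-conditioned libraries 1, 2 and 3. With 6 libraries the smallest exact sign-flip p is 0.0312, so fewer libraries alone raise p here. The last end of chromosome 12 had -2.08 points, from -2.53 to -1.46 over libraries. At chromosome 13 the first end had 1.56 points and the last end 1.88 points, and neither sign held throughout. The first end had -9.33 points in its outer 0.5 Mb and -2.34 points without matching on the number of positions. The last end had -6.60 points in its outer 0.5 Mb and -1.92 points with tiles weighted by their positions.

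Ranked among all windows of their chromosome, the end windows stood high on chromosomes 10 and 11 and near the middle on chromosome 12. On chromosome 1, the last and first end ranked 3 and 4 of 66 windows of 3 Mb with at least 20 tiles, and interior windows ran from -8.71 to 14.5 points. On chromosome 10, the last and first end ranked 1 and 2 of 20 windows of 1 Mb, with interior windows from -11.1 to 6.55 points. Ranks 3 and 4 there went to the windows next inward from the first end, at 6.55 and 6.49 points. On chromosome 11 they ranked 1 and 4 of 18. The highest interior window there had 7.41 points, but it was shorter than 1 Mb and adjoined the last end. The highest of full width with at least 20 tiles had 6.85 points. The ends of chromosome 12 ranked 10 and 11 of 20, and those of chromosome 13 ranked 4 and 6 of 17. On each chromosome the interior window next to the last end was shorter than the others. These ranks describe the variation along the chromosomes and carry no test.

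**Figure D2:**
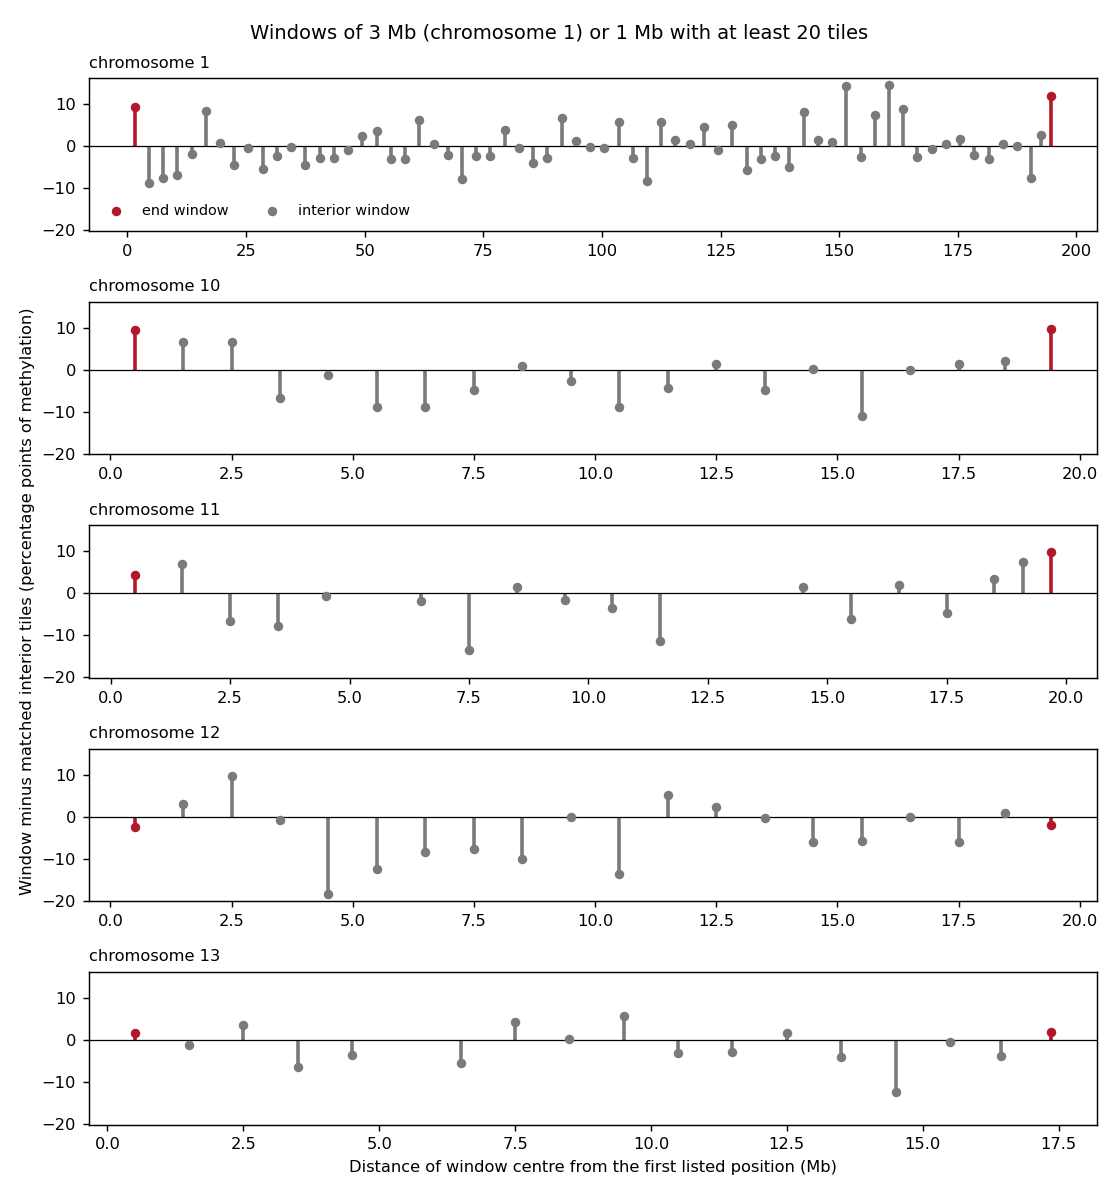
Difference between each window's tiles and interior tiles of the same chromosome and number of positions (percentage points, vertical axis, mean of 7 libraries) against distance from the first listed position (Mb), for windows of 3 Mb on chromosome 1 and 1 Mb on the others that hold at least 20 tiles. The interior window next to each last end is shorter than the others. End windows (red) are among the highest on chromosomes 1, 10 and 11 and near the middle on chromosome 12, where interior windows (grey) run from -18.5 to 9.68 points.

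Both the share of unmethylated tiles and the level of the others differed between ends and interior. Of end tiles with a match, 24.9% had a mean under 10%, 62.5% a mean of 10% to 80%, and 12.6% a mean of 80% or more. Interior tiles weighted to the same chromosomes and numbers of positions had 33.6%, 57.3% and 9.17%. Among tiles of 10% or more, end tiles averaged 56.5% and matched interior tiles 50.6%. At the last end of chromosome 1, 23.4% of tiles were under 10%, against 39.6% of matched interior tiles, and 18.2% were at 80% or more, against 10.8%. At the first end of chromosome 12 the order was the other way, with 40.0% of tiles under 10% against 33.4% in the matched interior. Single end tiles ranged from 0 to 98.6%, with quartiles of 9.83%, 46.5% and 70.1%.

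The difference was largest in tiles of 12 to 31 positions. Only positions with a value in all 7 libraries count here, so this number also depends on coverage and is not the CpG density of the sequence. Tiles of 3 to 5 positions averaged 56.7% at the ends and 54.5% in the matched interior, a difference of 2.29 ± 0.595 points (SD, n = 7). The differences were 6.25 ± 0.199 points at 6 to 11 positions, 11.7 ± 0.301 points at 12 to 31 positions and 8.18 ± 0.591 points at 32 or more, where the levels were 19.4% and 11.2%. When chromosomes 1, 10 and 11 were pooled, a grouping chosen after the values were seen, the differences were 2.79, 8.34, 16.02 and 11.3 points in the 4 classes. On chromosomes 12 and 13 they were 0.677, -0.886, 0.187 and 0.844 points.

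Pooled over the 5 chromosomes, tiles with 32 or more positions, called dense here, were more often methylated at the ends. Of 685 such end tiles, 63.5% had a mean under 10% and 4.23% a mean of 80% or more. Of 4602 such interior tiles, 79.6% were under 10% and 0.695% at 80% or more. On chromosomes 1 and 10 the share under 10% was lower at both ends than in the interior. It was higher at both ends of chromosome 11 (69.1% and 73.6%, against 66.9%) and of chromosome 12 (85.2% and 72.7%, against 66.0%). On chromosome 13 the first and last end had 51.3% and 90.9%, against 72.2%. The share at 80% or more ran from 2.92% to 5.40% over the 7 libraries at the ends and from 0.608% to 1.13% in the interior, and these ranges did not overlap. All libraries read the same tiles, so this shows that libraries repeat the difference and not that ends do. In all, 29 of the 61 dense tiles at 80% or more lay at the ends, which is 47.5%. Dense tiles of any level numbered 685 at the ends and 4602 in the interior. On chromosome 1, 14 of 174 dense end tiles were at 80% or more, against 3 of 2354 dense interior tiles. Chromosome 10 had 9 of 188 against 2 of 566, and chromosome 12 had 4 of 82 against 14 of 627. Chromosomes 11 and 13 had 1 of 121 and 1 of 120 at the ends, against 8 of 537 and 5 of 518 in the interior. These density and level classes were chosen after values of these data had been seen.

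**Figure D3:**
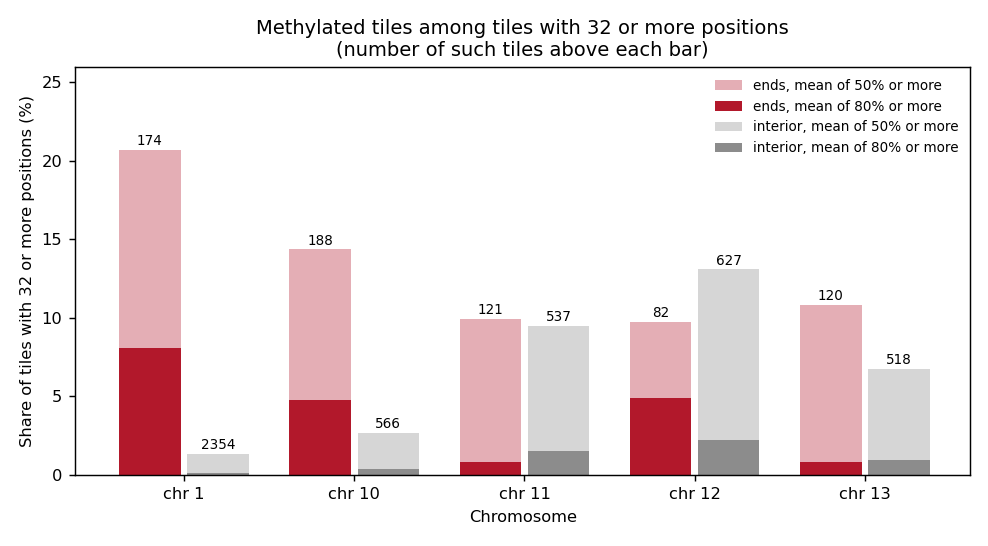
Share of tiles with 32 or more positions (vertical axis, percent) whose mean over 7 libraries is 50% or more (pale bars) or 80% or more (dark bars), at the ends (red, left) and in the interior (grey, right) of each chromosome, with the number of such tiles above each bar. The ends of chromosome 1 reach 20.7% at 50% or more, against 1.32% in its interior, while chromosome 12 has 9.76% at its ends and 13.1% in its interior.

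Some of the dense methylated end tiles lay near each other, and others lay alone. On chromosome 1, 7 of them lay within 108.5 kb, between 194362001 and 194470500. Chromosomes 11 and 13 had a single one each. Their spacing was not tested against the uneven spacing of all tiles. Among dense tiles of chromosome 1, that at 195854001 to 195854500 held 67 positions and had 94.4%, 95.2% and 94.1% in conditioned libraries 1-2, 3 and 4, and 95.4%, 95.3%, 94.7% and 95.2% in non-conditioned libraries 1 to 4. Interior tiles of chromosome 1 with 67 positions averaged 6.87% over 29 tiles. The neighbouring tile, 195854501 to 195855000, was the most methylated end tile with 10 or more positions, at a mean of 95.6% over 15 positions. Near the last position of chromosome 10, the tile at 20069001 to 20069500 had 72 positions and 88.7%, 84.1% and 83.3% in conditioned libraries 1-2, 3 and 4, and 84.2%, 87.96%, 83.9% and 87.8% in non-conditioned libraries 1 to 4. The values of the groups overlapped in both named dense tiles. Which genes or repeats lie there is not given in the files.

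The other 3 of the 5 most methylated end tiles with 10 or more positions are given with the interior mean for their number of positions. All 5 were chosen for their high means, so lying above an interior average follows from the choice. The most methylated interior tiles were not set beside them. On chromosome 1, the tile at 688001 to 688500 averaged 95.3% over 21 positions, against 20.4% in 80 interior tiles. At its other end, the one at 194109501 to 194110000 averaged 94.8% over 13 positions, against 25.5% in 114 interior tiles. The 394001 to 394500 tile of chromosome 11 averaged 94.3% over 13 positions, against 40.2% in 40 interior tiles.

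Methylation changed with distance from the listed end, and not in the same way on all chromosomes. The outer 0.25 Mb was the lowest part of the window at the last ends of chromosomes 10, 11, 12 and 13, and at the first ends of chromosomes 11 and 13, where it held 7 and 16 tiles. At the last end of chromosome 12, 21 tiles in the outer 0.25 Mb averaged 8.90% ± 1.87 (SD, n = 3) in conditioned and 9.86% ± 1.06 (SD, n = 4) in non-conditioned libraries, and 90.5% of them had a mean under 10%. From 0.25 to 0.5 Mb the level over all libraries was 33.8%, and from 0.5 to 1 Mb it was 48.1%. Relative to interior tiles with the same number of positions these 3 bins lay at -25.5, -4.73 and 5.45 points, so the order of the bins was the same after matching on the number of positions.

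At the last end of chromosome 11 the levels were 19.9%, 52.4% and 55.5% in the same 3 bins of distance, over 34, 62 and 175 tiles. At the last end of chromosome 13 they were 16.1%, 26.7% and 49.9%, with 19 tiles in the outermost bin. At its first end they were 17.7%, 25.6% and 40.5%, with 16 tiles in the outermost bin. Without those thinly filled bins both ends of chromosome 13 still went up from 0.25 to 1 Mb. The outer 0.5 Mb of chromosome 13 lay at -8.07 points relative to matched interior tiles (adjusted exact permutation p = 0.0156), whereas the full windows lay 1.71 points above. At chromosome 12 the outer 0.5 Mb turned the first end round, to 6.63 points above the interior, over 24 tiles of which 20 lie in the outer 0.25 Mb.

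Chromosome 1 was binned more coarsely, and its outer 0.5 Mb was not the lowest bin at either end. In blocks of 100 kb, however, its first end had 24.1% in the outermost 100 kb, over 9 tiles of which 55.6% had a mean under 10%. Each of the next 4 blocks was higher than the one outside it, with 40.7% at 100 to 200 kb and 55.8% at 400 to 500 kb. Its last end had 43.3% in the outermost block, over 13 tiles, and 39.4% in the next. In the wider bins of the first end, levels were 48.0% within 0.5 Mb, 44.6% from 0.5 to 1 Mb, 41.4% from 1 to 2 Mb and 50.02% from 2 to 3 Mb. They were 26.5% from 3 to 5 Mb and 29.6% from 5 to 10 Mb, outside the window. At its last end, levels were 45.3%, 51.9%, 45.8% and 40.8% in the 4 bins of the window, 45.1% from 3 to 5 Mb and 28.9% from 5 to 10 Mb. In these bins the level at the last end of chromosome 1 did not drop at the 3 Mb edge of the window. The 20 tiles nearest to that edge did differ, with 40.5% inside and 20.5% outside, so the reading depends on the width of the bin. Of its 534 tiles, 339 lay between 1 and 2 Mb. At the first end of chromosome 10 the outermost 0.25 Mb was high, at 51.2%, but held 16 tiles.

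**Figure D4:**
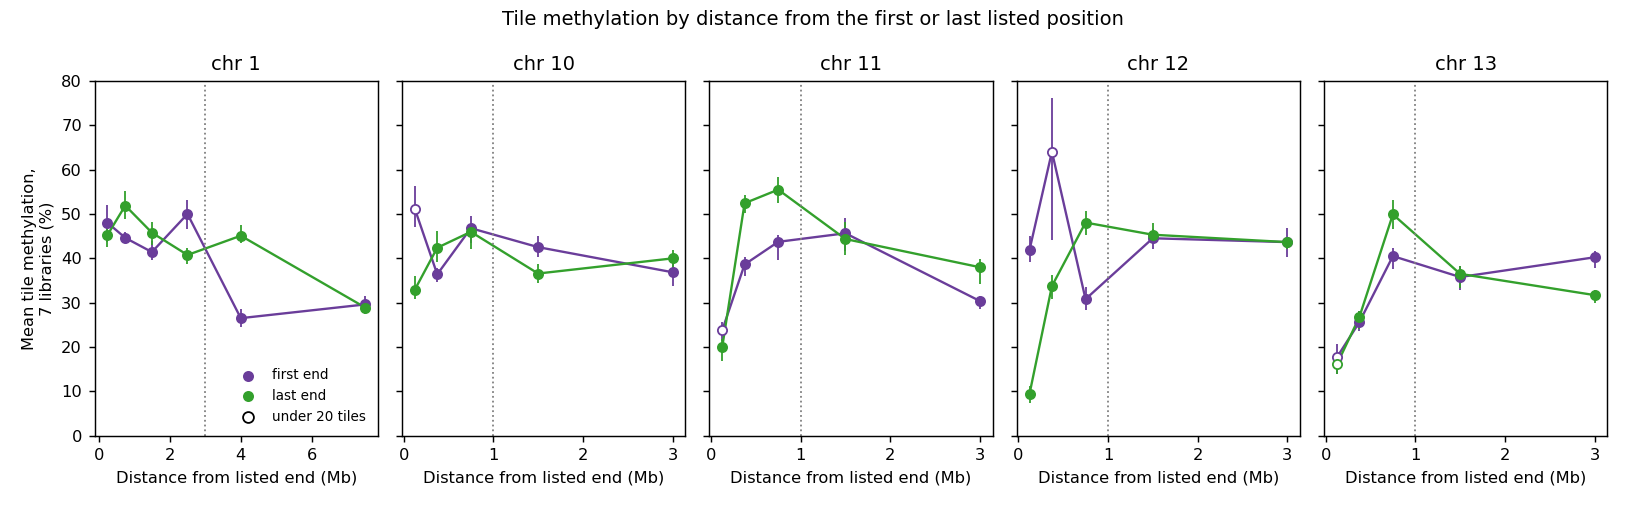
Mean methylation of tiles (percent, mean of 7 libraries, vertical axis) in bins of distance from the first (purple) or last (green) listed position (Mb), with vertical lines from the lowest to the highest library, open symbols for bins under 20 tiles and a dotted line at the edge of the end window. The last ends of chromosomes 11, 12 and 13 start at 19.9%, 9.45% and 16.1% and rise inward, while both ends of chromosome 1 stay between 40.8% and 51.9% inside the window.

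At the edge of the windows, the innermost 20 tiles inside averaged 44.7% and the nearest 20 tiles outside 39.4%, as means over the 10 ends. The pair was 40.5% inside and 20.5% outside at the last end of chromosome 1, and 24.5% inside and 49.8% outside at the first end of chromosome 11. In blocks of 100 kb with at least 20 tiles, of which there were 46, levels inside the windows ran from 16.8% to 70.1%. The lowest was 300 to 400 kb from the first listed position of chromosome 13, with 15.9% ± 2.24 (SD, n = 3) in conditioned and 17.5% ± 1.03 (SD, n = 4) in non-conditioned libraries over 26 tiles. The highest was 700 to 800 kb from the last listed position of chromosome 11, with 69.9% ± 2.12 (SD, n = 3) and 70.2% ± 0.639 (SD, n = 4) over 22 tiles, none of which had a mean under 10%.

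The outermost tile of each end shows the same spread. At the last end of chromosome 1 the tile at 196198001 to 196198500 had 39.9%, 27.8% and 20.7% in conditioned libraries 1-2, 3 and 4, and 21.8%, 22.9%, 27.4% and 27.1% in non-conditioned libraries 1 to 4, over 18 positions. At its first end the tile at 31001 to 31500 averaged 5.37% over 32 positions. On chromosome 13 the outermost tiles, at 504501 to 505000 and 18367501 to 18368000, averaged 8.50% and 6.21%, against 42.5% and 47.3% in interior tiles of 12 and 5 positions. On chromosome 10 those at 509001 to 509500 and 20415501 to 20416000 averaged 53.8% and 67.6% over 5 and 3 positions. On chromosome 11 those at 55001 to 55500 and 20216501 to 20217000 averaged 72.7% and 56.6%. On chromosome 12 the tile at 47001 to 47500 averaged 73.8% over 3 positions, and the tile at 19931001 to 19931500 averaged 8.01% over 31 positions.

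Heat conditioning was the question of the study, and the end tiles as a group gave no difference that passed. They averaged 42.7% ± 2.57 (SD, n = 3) in conditioned and 43.5% ± 0.872 (SD, n = 4) in non-conditioned libraries. Conditioned library 1-2 was the highest of the 7 and conditioned library 3 the lowest, so the groups overlapped. The difference was -0.796 points (exact permutation p = 0.60, two-sided, of 35 arrangements whose smallest p is 0.0286). Without conditioned library 3 it turned to 0.431 points (exact permutation p = 0.80), and without conditioned library 1-2 it was -2.13 points (exact permutation p = 0.133).

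**Figure D5:**
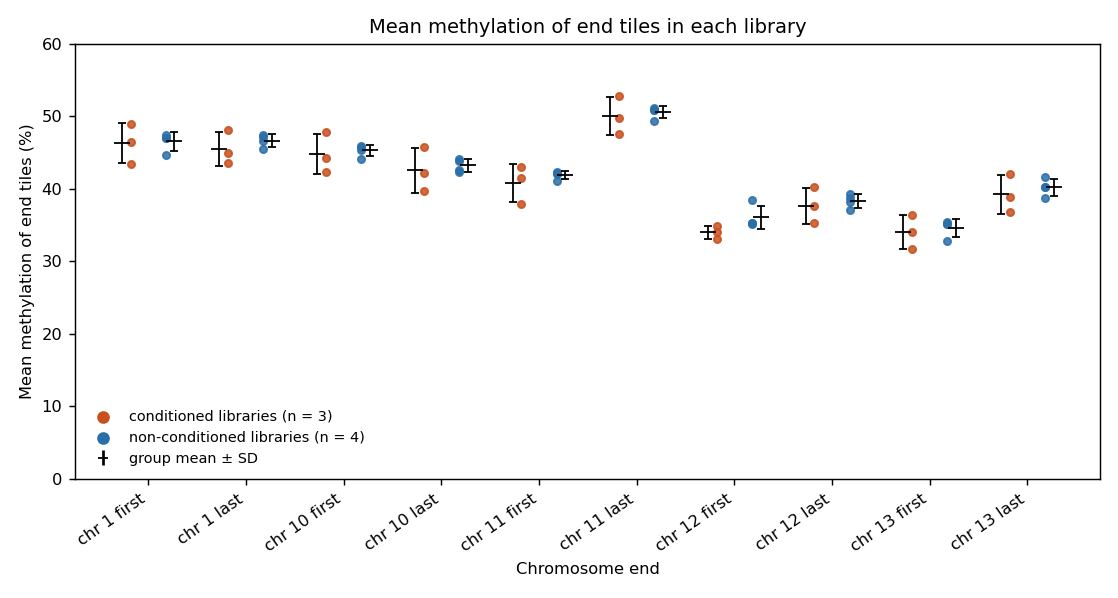
Mean methylation of end tiles (percent, vertical axis) in each library at the 10 ends, with the 3 conditioned libraries left of the 4 non-conditioned ones and group means with SD. Conditioned libraries spread wider than non-conditioned ones at 9 of the 10 ends, and at the first end of chromosome 12 all 3 (33.04% to 34.9%) lie below all 4 (35.2% to 38.5%).

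All 10 ends had a lower conditioned than non-conditioned mean, with differences from -2.09 to -0.288 points, and none passed (lowest exact permutation p 0.0571, adjusted 0.571 over the 10 ends). Conditioned library 3 was the lowest library at 10 of the 10 ends and conditioned library 1-2 the highest at 9. The groups did not overlap at 1 end, the first end of chromosome 12, with 34.9%, 33.04% and 34.1% in conditioned libraries 1-2, 3 and 4, and 35.4%, 35.3%, 35.2% and 38.5% in non-conditioned libraries 1 to 4. In 32 bins of distance inside the windows the conditioned mean was lower in 28, and the groups overlapped in every one of them.

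The lower conditioned mean was not shown to be larger or smaller at the ends than elsewhere. The end-minus-interior difference was 7.27 ± 0.553 points (SD, n = 3) in conditioned and 7.18 ± 0.169 points (SD, n = 4) in non-conditioned libraries. The difference between these, 0.0902 points, did not pass (exact permutation p = 0.8286). It turned to -0.195 points without conditioned library 1-2 (exact permutation p = 0.467, where the smallest possible is 0.0667). At single ends it ran from -1.59 to 0.787 points, with 5 ends above 0 and 5 below (lowest adjusted exact permutation p 0.762).

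Tiles of different level moved differently between libraries. The 685 end tiles with a mean under 10% had 6.26%, 3.28% and 3.77% in conditioned libraries 1-2, 3 and 4, against 5.58%, 5.71%, 5.93% and 5.86% in non-conditioned libraries 1 to 4. Conditioned libraries 3 and 4 lay below all non-conditioned libraries there, and conditioned library 1-2 lay above them. The 1687 end tiles of 10% to 80% had 53.2%, 46.4% and 49.6% in the conditioned libraries and 48.7%, 50.5%, 50.95% and 51.2% in the non-conditioned ones. The 339 end tiles of 80% or more had 85.6%, 84.5% and 85.7% against 84.7%, 86.2%, 86.2% and 87.2%. In interior tiles the conditioned minus non-conditioned differences were -1.38, -0.55 and -1.37 points in the 3 classes, and in end tiles -1.34, -0.577 and -0.792 points. No test was made of these classes. Conditioned libraries 3 and 4 also had values at more positions than the other libraries, and the part of this in their levels was not tested.

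No single end tile passed when libraries were the replicates. The limma test was fitted on all 18784 tiles with a mean between 2% and 98%, of which 2677 were end tiles; 33 end tiles at or under 2% and 1 at or over 98% were left out. It called 0 end tiles and 0 of all tiles (0.0%) at a Benjamini-Hochberg adjusted p under 0.05, and the lowest adjusted limma p at the ends was 0.618. At an unadjusted p under 0.05 it gave 138 end tiles, 31 higher and 107 lower in conditioned libraries, which is 5.16% of those tested, beside 6.01% of all tiles (1.13% higher and 4.88% lower). The count and the split rested on single libraries: it was 88 without conditioned library 4, 273 without conditioned library 1-2, of which 256 were lower, and without conditioned library 3 there were 52 higher and 51 lower. Without conditioned libraries 4, 1-2 and 3 in turn, 3.29%, 10.2% and 3.85% of end tiles were counted. The shares of all tiles were 3.64%, 12.8% and 4.56%. The exact permutation test per tile gave 88 end tiles without adjustment, which is 3.29%, beside 3.70% of all tiles. It gave 0 with adjustment. Its smallest p is 0.0286, so adjustment over 18784 tiles could call none unless most tiles reached that p. This 0 therefore says nothing about single tiles. The groups did not overlap in 145 end tiles, 28 higher and 117 lower, which is 5.42%, beside 6.91% of all tiles (1.18% higher and 5.73% lower). With all 7 libraries, these shares of end tiles lie near those of all tiles. The median log2 ratio difference was -0.09 in end tiles and -0.13 in all tiles.

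None of the end tiles with the smallest limma p passed. Lowest in p was a tile of chromosome 10 at 20013501 to 20014000, which was lower in conditioned microglia. It had 35%, 40% and 25% in conditioned libraries 1-2, 3 and 4, against 73.3%, 75%, 70% and 60% in non-conditioned libraries 1 to 4, over 5 positions (log2 ratio difference -2.01, SE 0.31, limma adjusted p = 0.618). On chromosome 13, 1081501 to 1082000 averaged 32.96% ± 7.55 in conditioned libraries (SD, n = 3), against 61.1% ± 5.92 in non-conditioned libraries (SD, n = 4), at 16 positions. A pair of tiles with 31 and 48 positions had a mean under 10% in both groups and were lower in conditioned libraries. That of chromosome 10, 19864001 to 19864500, averaged 0.616% ± 0.541 in conditioned libraries (SD, n = 3), against 7.13% ± 2.06 in the non-conditioned ones (SD, n = 4), at 31 positions. That of chromosome 13, 18027501 to 18028000, averaged 2.27% ± 1.03 in conditioned libraries (SD, n = 3), against 7.14% ± 0.682 in the non-conditioned ones (SD, n = 4), at 48 positions. The fifth, on chromosome 10 at 19515501 to 19516000, rests on 3 positions. Its conditioned values were 66.7%, 83.3% and 91.7%, and its non-conditioned values were all 100%.

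Among higher tiles the smallest p belonged to chromosome 10, 955501 to 956000, at 6 positions. Conditioned libraries 1-2, 3 and 4 had 40.9%, 46.5% and 36.7% there, against 27.5%, 20.4%, 14.9% and 13.2% in non-conditioned libraries 1 to 4 (log2 ratio difference 1.42, SE 0.31, limma adjusted p = 0.784). The outermost tile of the last end of chromosome 11, at 20216501 to 20217000, had 73.1%, 58.3% and 78.6% in the conditioned libraries, against 36.1%, 47.3%, 55.6% and 47.5% in the non-conditioned libraries, from 3 positions. Chromosome 12, 19269001 to 19269500, averaged 39.0% ± 3.58 in conditioned libraries (SD, n = 3), against 25.1% ± 2.47 in the non-conditioned ones (SD, n = 4), at 4 positions. Chromosome 13, 937501 to 938000, averaged 92.2% ± 6.77 (SD, n = 3), against 74.8% ± 4.32 (SD, n = 4), at 3 positions without a partner on the other strand. Chromosome 1, 606001 to 606500, averaged 94.5% ± 1.62 in conditioned libraries (SD, n = 3), against 84.9% ± 5.49 in the non-conditioned ones (SD, n = 4), at 8 positions. The groups did not overlap in any of these 10 tiles, which were chosen for their small p.

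The authors' deposited table of segments holds 1449 segments in the end windows and 9667 in the interior of the 5 chromosomes. In the authors' deposited table, 7 end segments had a q-value under 0.05, 6 lower and 1 higher in conditioned microglia. That is 0.483% of end segments, beside 0.683% of all 53008 deposited segments, which are not confined to the 5 chromosomes. In that table, 71.9% of end segments had a lower conditioned mean, and 79.7% of interior ones. These shares were not matched on level: 58.5% of end segments and 71.7% of interior ones had a non-conditioned mean under 10%. The authors' deposited table gives the segment at chromosome 12, 19519392 to 19519528, means of 5.91% in conditioned and 8.90% in non-conditioned microglia over 42 positions. From the site table its library values were 6.47%, 8.36% and 2.90% in conditioned libraries 1-2, 3 and 4, and 8.47%, 10.0%, 11.0% and 6.06% in non-conditioned libraries 1 to 4, so the groups overlapped there. The segment that was higher, at chromosome 11, 906760 to 906805, had deposited means of 16.6% and 1.48% in the authors' deposited table, and the groups did not overlap in library values. The groups did not overlap in 5 of the 7. These segments were found by the authors on the same libraries and picked here by their q-value, so this count is no independent check. No share over all segments stands beside it.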

How the data were processed

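RRBS libraries of 3 conditioned and 4 non-conditioned pools were compared. The submitters' processing notes name Trimmomatic, Bismark 0.22.3, Bowtie, HOMER and the build galGal5; the settings are not given in the sources used here. The deposited site table gives percent methylation per cytosine position and library, with no read counts; the 513180 positions with a value in all 7 libraries were used. Per the file headers, the authors' segment table gives group means in percent, p-values, q-values and a count of CpG positions per segment, and a difference column (a score, non-conditioned minus conditioned) deposited in percentage points; differences here are conditioned minus non-conditioned.

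Tile means weighed positions equally. Each end tile was set against the mean of interior tiles of its chromosome with the same number of positions, and tested over libraries by exact permutation. For single tiles, limma 3.58.1 (R 4.3.3) with a trend in the variance was fitted to log2((fraction + 0.05)/(1 - fraction + 0.05)), with Benjamini-Hochberg adjustment over all tiles. On simulated data made from the means of these 18784 tiles, limma found 10% of tiles altered by 1 log2 unit and 61% of those altered by 2, and 1 unaltered tile. The simulated noise was independent between libraries, its SDs were shuffled over tiles, and shifts of whole libraries were left out. Whether these shares hold for the real tiles was not tested. Other computing used Python 3.11.15, numpy 2.4.6 and pandas 2.3.3. Named tiles are the outermost of each end, the 5 higher and the 5 lower end tiles with the smallest limma p, and the 5 most methylated end tiles with 10 or more positions. The regions, classes and tests were chosen with earlier results of these data known. No genome or annotation of galGal5 was used, so genes and sequences are not given, and matching on GC content was not run.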

Additional observations from a re-analysis of the deposited data

Results flagged for a closer look

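In 5 of 47 sets of 4 non-conditioned values, 1 library stood far from the other 3. For independent sets chance gives about 1 in 20, or 2.35. These sets reuse the same 4 libraries, and some of their tiles were picked by their values. They are not independent, so 2.35 is only a rough guide. The measure is the gap to the nearest library over the whole range. It was 0.942 for the first end of chromosome 12, where library 4 had 38.5% and the others 35.4%, 35.3% and 35.2%. It was 0.878 for the first end of chromosome 13, where library 1 had 32.8% and the others 35.4%, 35.1% and 35.1%. It was 0.844 for the last end of chromosome 11, where library 1 had 49.3% and the others 51.2%, 50.9% and 50.9%. It was 0.909 for the outermost tile of the last end of chromosome 12, at 19931001 to 19931500, where library 2 had 33.1% and the others between 2.02% and 4.84%. It was 0.926 for chromosome 1, 688001 to 688500, where library 4 had 92.5% and the others 97.1%, 97.5% and 97.1%.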

How the results depend on the processing

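Over all ends, end tiles lay above matched interior tiles in each alternative run, by 5.37 to 9.76 points (0.50 on the log2 ratio scale) and by 7.11 to 7.30 points with a library left out, and 8 ends lay above without any 1 library. Restricted to the 4 non-conditioned libraries, where no exact p can go under 0.125, the differences were 7.18 points over all ends and 10.95, 9.55, 7.37, -1.94 and 1.62 points on chromosomes 1, 10, 11, 12 and 13. The outer part of the windows (1 Mb on chromosome 1, 0.5 Mb elsewhere) gave -8.07 points on chromosome 13, with -9.33 and -6.60 points at its first and last end, and 6.63 points at the first end of chromosome 12. Weighting tiles by positions gave -1.92 points at the last end of chromosome 13. Without matching on the number of positions, chromosome 13 gave 0.110 points and its first end -2.34 points. Against the next window inward, an alternative chosen after seeing the data, the first end of chromosome 11 gave -1.48 points. The causes were not tested. With a library left out, the conditioned minus non-conditioned difference of end tiles ran from -2.13 to 0.431 points, its difference from the interior from -0.195 to 0.358 points, end tiles at an unadjusted limma p under 0.05 from 88 to 273 (51 to 256 of them lower), and tiles whose groups do not overlap from 247 to 595, a count that fewer libraries raise by construction. The count of 273 came without conditioned library 1-2, and that of 51 lower tiles without conditioned library 3, where 52 were higher. The counts from 88 to 273 were 3.29% to 10.2% of end tiles, beside 3.64% to 12.8% of all tiles. For tiles whose groups do not overlap, no share over all tiles stands beside these counts. The exact permutation test gave 88 end tiles at an unadjusted p under 0.05, 69 lower, which is 3.29%, beside 3.70% of all tiles. A replicate block uses only libraries 3 and 4 of each group. With it, 237 end tiles had an unadjusted limma p under 0.05, 214 of them lower. That is 8.85% of end tiles, beside 9.97% of all tiles. The difference of end tiles was then -2.71 points and its difference from the interior -0.277 points (exact sign-flip permutation p = 0.50 for both, the smallest 2 pairs allow). The block left 0 end tiles past adjustment. The numbers were not taken as pairs, because the number 1-2 matches no single non-conditioned library. Deviations of same-numbered libraries over end tiles had r = 0.0366 for number 3 and 0.0179 for number 4. Such values cannot tell whether same-numbered pools shared a batch. With 10 or more positions per tile, the last end of chromosome 13 gave 0.440 points (adjusted exact permutation p = 0.0625). Matching on GC content was not run. The unknown read depth limits all values.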

Other observations

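Chromosome 14 is listed only from position 2912 to 4886681, so only its first end is in the table. Its outer 1 Mb held 89 tiles with a mean of 21.2%, and the other 757 tiles of the listed part averaged 38.7%. Over the 76 tiles with a match in number of positions, the outer 1 Mb differed from the rest by -7.89 ± 0.865 points (SD, n = 7 libraries), from -9.26 to -6.94 points over libraries.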
